A study of Mus musculus with 16 samples.

Results

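A set of 10 genes by which colon epithelium makes reactive oxygen and nitrogen species is described here across 16 RNA-seq libraries: Nox1, its organizer Noxo1, its activator Noxa1, its membrane partner Cyba and the GTPase Rac1, the dual oxidases Duox1 and Duox2 with their maturation factors Duoxa1 and Duoxa2, and the inducible nitric oxide synthase Nos2. They were taken by gene symbol, and all 10 were found among the 54392 symbols of the count table. Of these, 9 were among the 14321 genes with enough counts to be tested, and Duoxa1 was not. They were selected on function with their log2 fold changes between diets in these data already known, so their diet values are given below as a description. No p-value by diet is given for any of them, and nothing is read from how many passed. The libraries came from colonocytes, the epithelial cells lining the colon, of C57BL/6 mice kept on their diet for 3 weeks. One diet held fish oil, a source of n-3 fatty acids, with pectin, a fermentable fibre (7 libraries). The other held corn oil, rich in n-6 fatty acids, with cellulose, a poorly fermented fibre (9 libraries). The labels name no genetic change, and do not give age, sex or whether each library was made from a separate animal. Library names began with GC in 5 fish oil/pectin and 5 corn oil/cellulose libraries, and did not in 2 fish oil/pectin libraries (1 and 2) and 4 corn oil/cellulose libraries (1 to 4). The sources used here do not give the meaning of the GC prefix, so the name form is treated as a handling difference of unknown kind, and the libraries without it are called other-named.

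NADPH oxidases pass electrons from NADPH across a membrane to oxygen. Nox1 makes superoxide and is abundant in colon epithelium. It works with Cyba, which holds it in the membrane, with the cytosolic proteins Noxo1 and Noxa1, and with Rac1 in its GTP-bound form. Duox1 and Duox2 release hydrogen peroxide, were first known from the thyroid, and reach the cell surface only with their partner Duoxa1 or Duoxa2. In the gut, Duox2 and Duoxa2 are known for their response to microbes at the epithelial surface. Nos2 makes nitric oxide from arginine when inflammatory signals switch it on, and is expressed by macrophages as well as by epithelium.

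The Duox genes and their partners lie head to head on chromosome 2. In GENCODE M21 (build GRCm38), Duox2 spans 122279247 to 122298449 on the minus strand and Duoxa2 122298900 to 122302885 on the plus strand, with 450 bases between their starts. Duoxa1 (122302191 to 122313730, minus strand) and Duox1 (122315672 to 122347972, plus strand) form another such pair, with 1941 bases between their starts. Duoxa1 and Duoxa2 share 682 exonic bases on opposite strands. Nox1 lies on chromosome X (134086421 to 134221956, minus strand) and Nos2 on chromosome 11 (78920787 to 78960254, plus strand). RefSeq promoter windows on GRCm38.p6 were matched for 8 of the 10 genes, all but Nos2 and Rac1. Windows of 3 are shown, because Duox2 and Duoxa2 are neighbours that varied together across libraries, and because Nox1 differed most between the name forms. The RefSeq starts of Duox2 (122298227) and Nox1 (134111854) lie inside the GENCODE spans given above. Most of the Duox2 window and all of the Nox1 window thus lie inside the gene as GENCODE draws it. Between the RefSeq starts of Duox2 and Duoxa2 there are 672 bases. Each line gives the 250 bases before the RefSeq start, 5′ to 3′ on the strand of the gene, with capitals marking matched motifs. Duox2 is at chr2:122298228-122298477 (minus strand), Duoxa2 at chr2:122298650-122298899 (plus strand) and Nox1 at chrX:134111855-134112104 (minus strand).
Duox2: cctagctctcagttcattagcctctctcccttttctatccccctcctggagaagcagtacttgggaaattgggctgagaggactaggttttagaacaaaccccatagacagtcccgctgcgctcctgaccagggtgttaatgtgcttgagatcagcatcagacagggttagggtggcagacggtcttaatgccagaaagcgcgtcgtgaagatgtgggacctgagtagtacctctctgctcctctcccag
Duoxa2: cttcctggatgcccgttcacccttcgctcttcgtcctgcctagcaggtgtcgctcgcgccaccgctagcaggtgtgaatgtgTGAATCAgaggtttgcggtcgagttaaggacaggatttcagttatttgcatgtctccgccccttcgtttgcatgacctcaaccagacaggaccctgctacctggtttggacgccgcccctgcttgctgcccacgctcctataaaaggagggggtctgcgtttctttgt
Nox1: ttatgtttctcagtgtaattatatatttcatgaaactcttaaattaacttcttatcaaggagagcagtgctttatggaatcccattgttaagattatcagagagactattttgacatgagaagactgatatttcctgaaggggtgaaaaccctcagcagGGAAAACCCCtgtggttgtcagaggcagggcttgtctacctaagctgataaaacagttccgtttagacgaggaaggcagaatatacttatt
The search covered 4 motifs on both strands, namely the STAT-type GAS motif TTCNNNGAA, the AP-1 motif TGANTCA, the antioxidant response element TGACNNNGC, and the kappa B motif. Duoxa2 held an AP-1 match 168 to 162 bases before its start, TGAATCA, which fits TGANTCA on both strands because N allows any base. Nox1 held a kappa B match on the opposite strand, 91 to 82 bases before its start. Noxa1 held a kappa B match, 249 to 240 bases before its start. No motif was matched in the Duox2 window or in those of Noxo1, Cyba, Duox1 and Duoxa1. Over 32851 promoter windows of the same length, 7.02% held the GAS motif, 7.25% the kappa B motif, 6.75% the AP-1 motif and 10.2% the antioxidant response element.

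Fish oil/pectin libraries held 16212831 to 19512755 counts and corn oil/cellulose libraries 13996288 to 19331984. Epithelial markers were high throughout: 10 of 10 were tested, and their summed level was 21039 to 35193 CPM (counts relative to TMM-scaled library size) with fish oil/pectin and 20438 to 25098 CPM with corn oil/cellulose. Of 14 macrophage and neutrophil markers 8 were tested, and all 14 summed to 69.2 to 156 CPM with fish oil/pectin and 76.2 to 133 CPM with corn oil/cellulose. Most of each sum was Ly6g (19.6 to 91.7 CPM with fish oil/pectin, 23.6 to 67.3 CPM with corn oil/cellulose) and Cd14 (39.1 to 80.1 CPM and 28.2 to 42.3 CPM). Ptprc, shared by all leukocytes, reached 31.9 CPM with corn oil/cellulose, and no other of these markers exceeded 3.27 CPM (Cd68 with fish oil/pectin). Cd163 and Mpo were at 0 in every library, and S100a8 and S100a9 at up to 0.0660 CPM with fish oil/pectin and 0.0684 CPM with corn oil/cellulose. All 10 T and NK cell markers were tested, and 8 fell with fish oil/pectin. Their sum was 17.5 to 43.7 CPM in GC-named and 11.6 to 16.2 CPM in other-named fish oil/pectin libraries, against 34.7 to 79.9 CPM in GC-named and 11.4 to 15.9 CPM in other-named corn oil/cellulose libraries. In bulk RNA, fewer cells of a type and less RNA per cell cannot be told apart. Fish oil/pectin library 7 stood apart from the rest: the distal colon gene Hoxd13 was at 0.631 CPM in it, 23.9 to 87.8 CPM in the remaining 6 of that diet and 25.3 to 100.4 CPM with corn oil/cellulose. The antimicrobial lectin gene Reg3g was at 1618 CPM in fish oil/pectin library 6 and 2743 CPM in library 7, against 49.2 to 152 CPM in the remaining ones of that diet and 3.91 to 92.7 CPM with corn oil/cellulose. Judged by Y-linked genes, 1 of 5 GC-named fish oil/pectin and 2 of 5 GC-named corn oil/cellulose libraries were male, as were all 6 other-named libraries.

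Nox1 (ENSMUSG00000031257.14), the catalytic subunit, was higher with fish oil/pectin within both name forms. In GC-named libraries it measured 24.05, 32.0, 21.2, 35.3 and 24.7 CPM with fish oil/pectin, against 18.1, 12.1, 16.6, 18.1 and 13.5 CPM with corn oil/cellulose. In other-named libraries it measured 63.3 and 73.2 CPM with fish oil/pectin, against 40.1, 44.1, 45.8 and 45.1 CPM with corn oil/cellulose. The diets did not overlap within either name form. They overlapped when all libraries were pooled, because every other-named library lay above every GC-named one. How many of all genes tested separate within a name form was not counted, for Nox1 or for the genes below. Among other-named libraries, with only 2 of fish oil/pectin, such separation can readily arise by chance. Adjusted for name form, the log2 fold change between diets was 0.74 ± 0.11 (SE), a fold of 1.67, and it was 0.76 without fish oil/pectin library 7 and 0.68 without libraries 6 and 7.

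The cytosolic partners of Nox1 and its membrane partner had smaller diet differences. Noxa1, the activator (chromosome 2, 25085667 to 25095149), measured 77.3, 80.2, 93.4, 107 and 136 CPM in GC-named fish oil/pectin libraries against 53.9 to 77.9 CPM in GC-named corn oil/cellulose libraries, and 88.0 and 70.1 CPM against 58.3 to 73.7 CPM in the other-named ones. The highest value was that of library 7, and the log2 fold change was 0.53 ± 0.12 with it and 0.43 without it. Cyba (chromosome 8, 122424776 to 122432930) measured 79.6 to 93.9 CPM in GC-named fish oil/pectin libraries against 55.7 to 75.6 CPM in the corn oil/cellulose ones, with no overlap. In other-named libraries its 60.6 and 57.3 CPM with fish oil/pectin lay within the 47.8 to 61.7 CPM found with corn oil/cellulose, and the log2 fold change over all libraries was 0.31 ± 0.07. Noxo1, the organizer (chromosome 17, 24696234 to 24700529), ran from 150.5 to 199 CPM with fish oil/pectin (median 175) and from 136 to 169.9 CPM with corn oil/cellulose (median 148), a log2 fold change of 0.18 ± 0.06. Rac1 (chromosome 5, 143503634 to 143528036), a GTPase with many roles beyond the oxidases, ran from 380.5 to 546 CPM with fish oil/pectin and from 404 to 469.6 CPM with corn oil/cellulose, a log2 fold change of 0.12 ± 0.06. Rac1 diets did not overlap in GC-named libraries, whereas 1 of the 2 other-named fish oil/pectin libraries lay below all corn oil/cellulose libraries. Noxo1 shares 2122 of its 3013 exonic bases with Tbl3 on the opposite strand, and Rac1 shares 2309 of 4496 with Daglb. The kit marks strand, but whether the counting used strand is not given, so the division of reads between these neighbours is uncertain.

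Duoxa2 (ENSMUSG00000027225.7), which carries Duox2 to the cell surface, was the gene of the 10 whose diets did not overlap over all libraries. It measured 14.6, 14.4, 16.05, 27.8 and 52.2 CPM in GC-named and 14.2 and 31.0 CPM in other-named fish oil/pectin libraries. With corn oil/cellulose it measured 6.14, 5.16, 11.5, 9.05 and 5.77 CPM in GC-named and 6.30, 8.22, 11.9 and 8.82 CPM in other-named libraries. Every fish oil/pectin library thus lay above every corn oil/cellulose library, as was so for 2.35% of all genes tested (3.35% had no overlap in either direction). Its log2 fold change was 1.60 ± 0.30, 1.31 without library 7 and 1.15 without libraries 6 and 7. Duoxa2 shares 682 of its 1592 exonic bases with Duoxa1 on the opposite strand, so the division of reads between them, and with it the Duoxa2 level and its ratio to Duox2, is uncertain in the same way.

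Duox2 (ENSMUSG00000068452.8), the oxidase itself, differed less and less evenly. It measured 47.4, 45.0, 57.9, 67.6 and 133 CPM in GC-named and 84.9 and 134 CPM in other-named fish oil/pectin libraries. With corn oil/cellulose it measured 45.2, 48.1, 64.5, 57.6 and 39.4 CPM in GC-named and 65.3, 64.1, 64.0 and 59.6 CPM in other-named libraries. Fish oil/pectin libraries 2 and 7 were the high ones, and 3 GC-named fish oil/pectin libraries lay within the corn oil/cellulose range. The log2 fold change was 0.58 ± 0.20, and was smaller without library 7 (0.37), without library 2 (0.45) and without libraries 6 and 7 (0.33). Per exon length, the Duoxa2 level over the Duox2 level was 0.711 to 1.75 with fish oil/pectin (median 1.31) and 0.410 to 0.789 with corn oil/cellulose (median 0.623). Of the fish oil/pectin libraries, only library 1 had a ratio inside the corn oil/cellulose range.

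The other dual oxidase pair was close to the lower limit of detection. Duox1 had 3 to 22 counts per library with fish oil/pectin and 4 to 12 with corn oil/cellulose, or 0.179 to 1.26 CPM against 0.239 to 0.744 CPM. Its diets overlapped, and its log2 fold change of 0.43 ± 0.38 was 0.14 without fish oil/pectin library 2 and -0.19 by voom with quality weights. Duoxa1 had 0 to 5 counts with fish oil/pectin and 0 to 3 with corn oil/cellulose. It was at 0 in fish oil/pectin libraries 3 and 4, where a count of 0 allows up to 0.179 and 0.194 CPM at 3 counts, and in corn oil/cellulose libraries 4 and 5, where it allows up to 0.205 and 0.186 CPM. A diet difference in Duoxa1 was not detectable at this depth. These limits cover counting error only.

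Nos2 (ENSMUSG00000020826.8) had the highest log2 fold change of the 9 and low counts, from 12 to 104 per library with fish oil/pectin and from 2 to 38 with corn oil/cellulose. It measured 1.31, 1.42, 0.646, 2.64 and 3.73 CPM in GC-named and 0.747 and 5.73 CPM in other-named fish oil/pectin libraries. With corn oil/cellulose it measured 0.310, 0.178, 1.01, 0.106 and 0.310 CPM in GC-named and 0.350, 0.517, 2.27 and 0.547 CPM in other-named libraries. The high values were in fish oil/pectin libraries 2, 6 and 7 and corn oil/cellulose library 3, and the diets overlapped. Its log2 fold change was 2.11 ± 0.53, and 1.68 without fish oil/pectin library 2, 1.70 without libraries 6 and 7, and 2.52 without corn oil/cellulose library 3. Of the 8 tested macrophage and neutrophil markers, 1 rose with fish oil/pectin (Cd14) and 3 fell. Lyz2, the macrophage lysozyme gene, was among those that fell, at 0.573 to 1.78 CPM with fish oil/pectin and 1.44 to 3.08 CPM with corn oil/cellulose. The part of such cells in the Nos2 values was not tested beyond the marker term below.

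**Figure D1:**
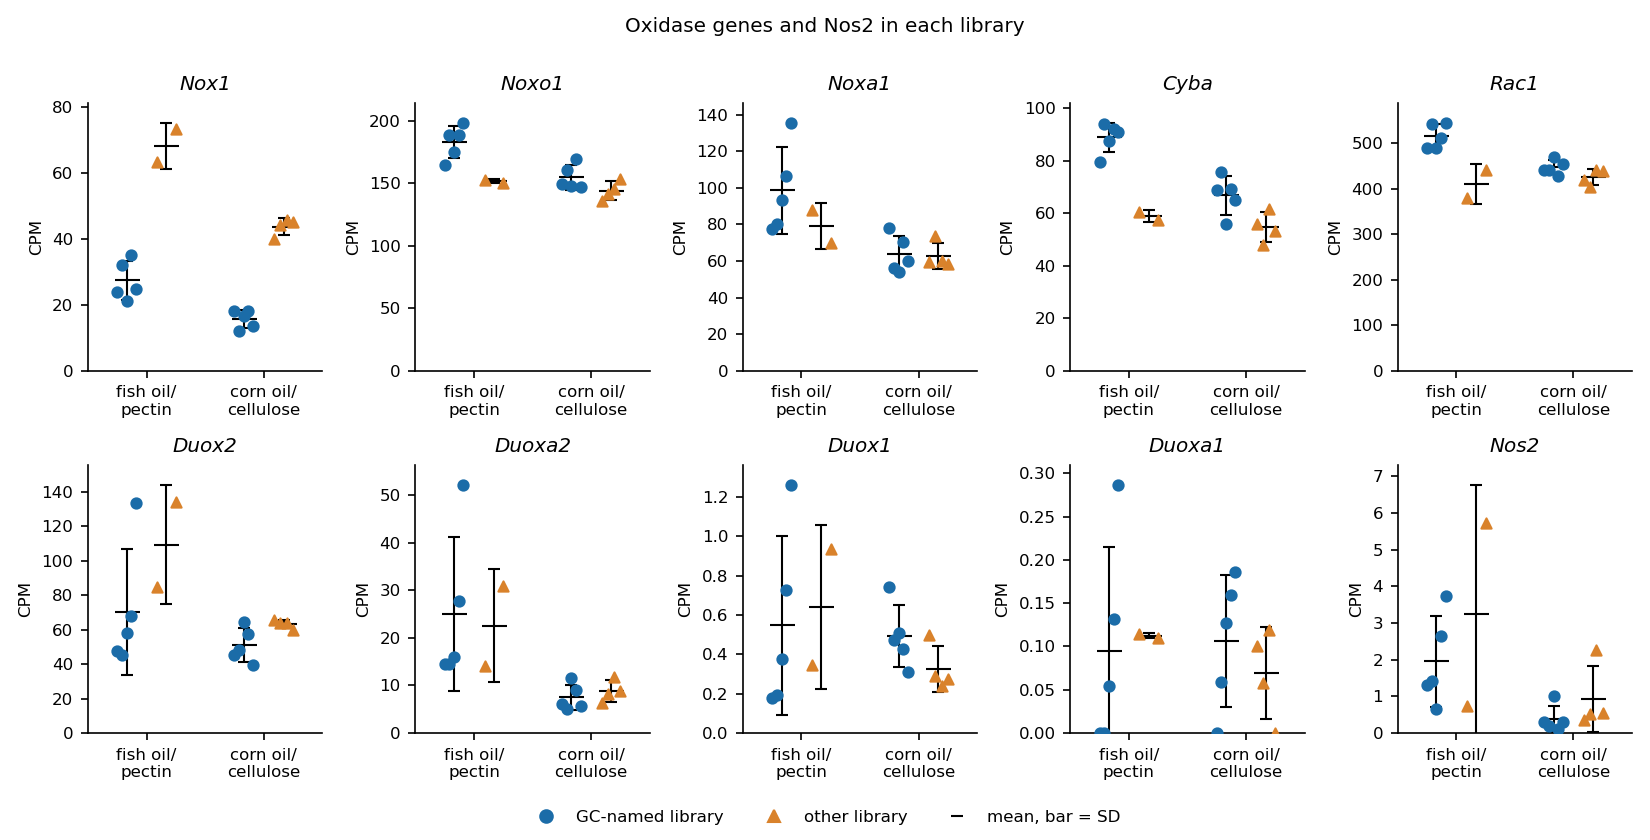
Level of each of the 10 genes in CPM (vertical axes, from 0) in GC-named (circles) and other-named (triangles) libraries of each diet; horizontal marks are means and bars SD, cut at 0. The lowest Duoxa2 level with fish oil/pectin, 14.2 CPM, lies above the highest with corn oil/cellulose, 11.9 CPM, and Nox1 separates by name form as well as by diet.

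Of the 9 tested genes, 7 were past an adjusted p of 0.05 between diets, all higher with fish oil/pectin. Duox1 and Rac1 were not. Over all genes tested 41.7% passed in either direction and 21.7% passed as higher, and since the choice of the genes used this contrast, nothing is read from the count. The median log2 fold change of the 9 was 0.53, against 0.00 over all genes tested, and nothing is read from this either, for the same reason. Duox1 then left untested, the count was 6 of 8 without fish oil/pectin library 7, 5 of 8 without libraries 6 and 7, and 2 of 8 in the other-named libraries fitted alone. In the same fits and order, 5352 of 14271, 4331 of 14247 and 900 of 14157 genes passed in all. With the mean log2 level of 20 non-epithelial markers as a term, the count was 0 of 9, as 1 gene in the whole table then passed by edgeR. In that fit the log2 fold change was 0.64 for Nox1, 0.69 for Duox2, 1.31 for Duoxa2 and 1.60 for Nos2. The marker mean itself was 1.25 to 1.60 in GC-named fish oil/pectin libraries and 1.99 to 2.59 in GC-named corn oil/cellulose libraries, with no overlap, and its part in the diet values cannot be told apart from diet there. In other-named libraries it was 0.994 and 1.00 with fish oil/pectin and 0.976 to 1.25 with corn oil/cellulose. The diet log2 fold changes there were 0.64 ± 0.18 for Nox1 and 0.79 ± 0.34 for Duox2. They were 1.37 ± 0.50 for Duoxa2 and 1.83 ± 0.81 for Nos2. These values came from the model with all combinations of name form and diet. In it, 0 genes in the whole table passed between diets in other-named libraries. The values rest on 2 fish oil/pectin libraries, and the part of the markers in them was not tested.

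Whether the diet difference depended on the name form was a question the choice of genes had not used, and it was tested by the interaction of both terms. None passed (0 of 9 by edgeR and by voom, and 0 of the 8 to which DESeq2 gave an adjusted p, Duox1 having none, against 8.41% of all genes by edgeR), and 2 had an unadjusted p under 0.05. These were Rac1, whose log2 fold change was 0.26 ± 0.10 higher in GC-named libraries (adjusted p = 0.116), and Cyba, where the excess was 0.30 ± 0.14 (adjusted p = 0.178). Cyba had a log2 fold change between diets of 0.41 ± 0.08 in GC-named and 0.11 ± 0.11 in other-named libraries, and Rac1 of 0.20 ± 0.06 in GC-named and -0.05 ± 0.08 in other-named libraries. For Nox1 the difference between name forms was 0.16 ± 0.23, and for Duoxa2 0.37 ± 0.64. With only 2 other-named fish oil/pectin libraries these errors are wide, and without fish oil/pectin library 2 only 6 genes in the whole table passed.

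**Figure D2:**
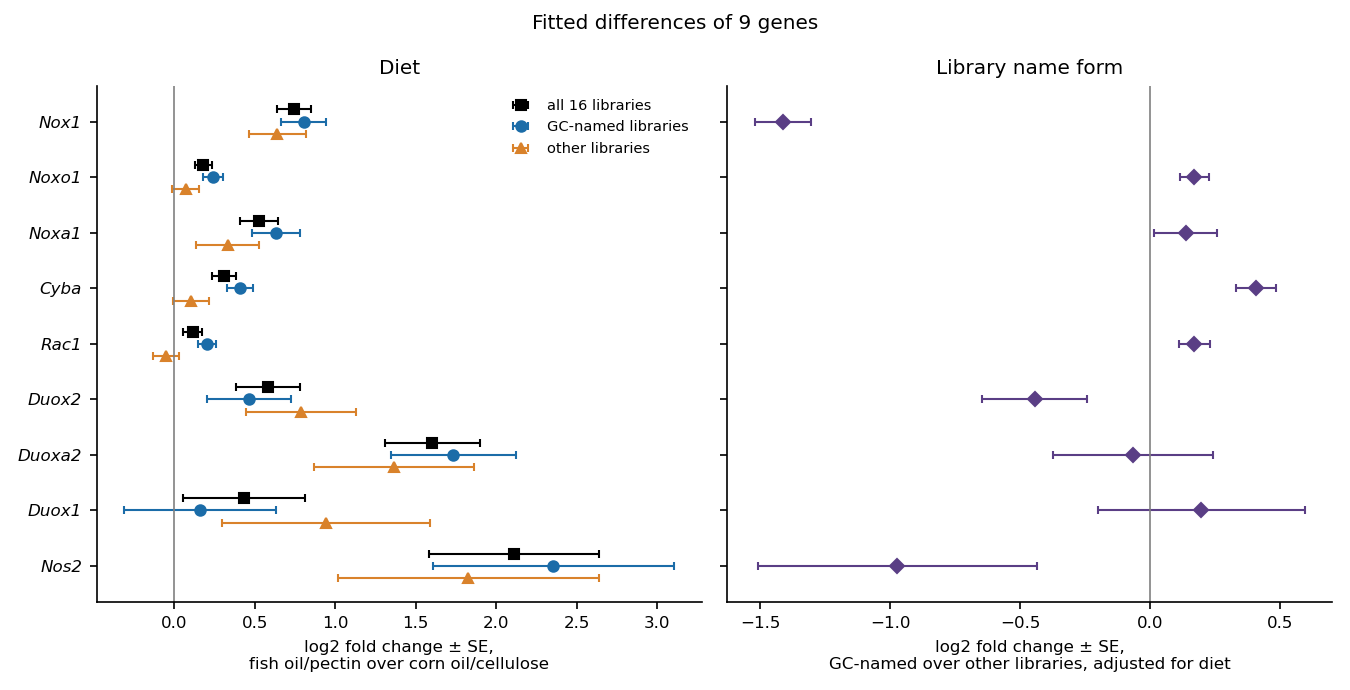
Fitted log2 fold changes with SE for the 9 tested genes, by diet (left; all libraries, GC-named and other-named) and by name form (right; GC-named over other-named libraries). The Nox1 value by name form, -1.41, lies farther from 0 than that of any other gene of the set, and its diet values are 0.80 in GC-named and 0.64 in other-named libraries.

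Between name forms, which were not part of the choice, Nox1 was the gene that differed most. It averaged 21.6 ± 7.57 CPM in GC-named libraries (SD, n = 10) and 52.0 ± 13.2 CPM in other-named libraries (SD, n = 6), and the ranges of 12.1 to 35.3 CPM and 40.1 to 73.2 CPM did not overlap. Adjusted for diet, its log2 fold change was -1.41 ± 0.11 (edgeR adjusted p = 7.49e-08), and 1.70% of all genes tested differed by more. All other-named libraries were male, so the test was repeated with sex as a term (-1.48, adjusted p = 2.87e-05) and in male libraries alone (-1.48, adjusted p = 3.05e-06). Over 29 settings the value lay between -1.50 and -1.25 and passed each time. Nox1 overlaps Cstf2 on the opposite strand over 399 of 3307 exonic bases.

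No partner of Nox1 had a negative value by name form. Cyba was higher in GC-named libraries, by 0.41 ± 0.08 (adjusted p = 6.42e-04), and it averaged 77.8 ± 13.1 CPM in GC-named and 56.1 ± 5.08 CPM in other-named libraries. Noxo1 (0.17 ± 0.06, adjusted p = 0.0243) and Rac1 (0.17 ± 0.06, adjusted p = 0.0323) were also past the threshold. Noxo1 was at 0.07 (adjusted p = 0.545) and Rac1 at 0.13 (adjusted p = 0.275) with sex as a term, and both were at 0.08 when scaled by total counts, where neither passed. Leaving out a library also ended these calls, for Noxo1 that of fish oil/pectin 1 (adjusted p = 0.0725) or 2 (adjusted p = 0.0776), and for Rac1 that of fish oil/pectin 1 (adjusted p = 0.148), fish oil/pectin 2 (adjusted p = 0.0682) or corn oil/cellulose 2 (adjusted p = 0.0567). Neither passed with no filter on low counts (adjusted p = 0.0731 for Noxo1 and 0.0896 for Rac1) or in male libraries alone (adjusted p = 0.424 for Noxo1 and 0.163 for Rac1), and Noxo1 did not with the marker term (adjusted p = 0.181). Noxa1 did not pass (0.14 ± 0.12, adjusted p = 0.392). In all, 4 of the 9 genes passed, 3 higher and 1 lower, and 40.5% of all genes did (20.2% higher and 20.3% lower), so the count itself is near the background. Scaled by total counts, 33.5% of all genes called by name form were higher in GC-named libraries, against 49.9% with TMM.

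With edgeR and TMM scaling over all libraries, the dual oxidases, Duoxa2 and Nos2 did not pass by name form. Duox2 was at -0.44 ± 0.20 (adjusted p = 0.0899), and its call depended on the method. Over all libraries it passed by voom with quality weights (-0.54, adjusted p = 0.00554), scaled by total counts (-0.54, adjusted p = 0.0342) and with the level of Hoxd13 as a term (-0.49, adjusted p = 0.0200). It also passed without fish oil/pectin library 7 (-0.58, adjusted p = 0.00417), without libraries 6 and 7 (-0.61, adjusted p = 0.00626) and in male libraries alone (-0.79, adjusted p = 0.00726). It passed in these 6 of 29 settings, and over all of them the adjusted p reached 0.352. Nos2 was at -0.97 ± 0.54 (adjusted p = 0.158), and at -1.40 without fish oil/pectin library 1 (adjusted p = 0.0450). Duoxa2 was at -0.07 ± 0.31 (adjusted p = 0.881) and Duox1 at 0.20 ± 0.40 (adjusted p = 0.716). The T and NK cell markers, of which 8 of 10 were higher in GC-named libraries with a median of 1.78, moved with the name form. Of the macrophage and neutrophil markers 4 of 8 were higher in GC-named libraries and 0 lower (median 0.74), and of the epithelial markers 8 of 10 were higher and 1 lower (median 0.39). The part of these markers in the values by name form was not tested beyond the marker term above, with which Nox1 was at -1.25 (adjusted p = 0.00460).

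Levels per exon length (RPKM) placed Rac1, Cyba, Noxo1 and Noxa1 above Nox1, with which they work, and above the dual oxidases. With fish oil/pectin the order of medians was Rac1 (109), Cyba (84.4), Noxo1 (58.1), Noxa1 (54.4), Duoxa2 (10.1), Duox2 (9.99), Nox1 (9.68), Nos2 (0.323), Duox1 (0.0716) and Duoxa1 (0.0277). With corn oil/cellulose it was Rac1 (98.3), Cyba (59.4), Noxo1 (49.1), Noxa1 (37.0), Duox2 (8.80), Nox1 (5.47), Duoxa2 (5.16), Duox1 (0.0808), Nos2 (0.0793) and Duoxa1 (0.0251). Noxa1 lay above the next gene in every library of both diets, and no Noxa1 value overlapped it. Duoxa2, Duox2 and Nox1 overlapped one another with fish oil/pectin, and so did Duox2, Nox1 and Duoxa2 in their order with corn oil/cellulose. Taking the longest transcript as the length, the fish oil/pectin order of those 3 was Nox1, Duox2 and Duoxa2, and Nos2 came above Duox1 with corn oil/cellulose. By union exon length, Duox2 lay above Nox1 in 2 of 7 fish oil/pectin and 5 of 9 corn oil/cellulose libraries. With corn oil/cellulose, Nox1 was at 3.66 to 5.47 RPKM in GC-named libraries, below Duox2 (5.82 to 9.52). In other-named ones it was at 12.1 to 13.9 RPKM, above Duox2 (8.80 to 9.65). The place of Nox1 thus went with the name form there. The levels of Noxo1, Rac1, Duoxa1 and Duoxa2 carry the uncertainty of their overlapping neighbours.

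**Figure D3:**
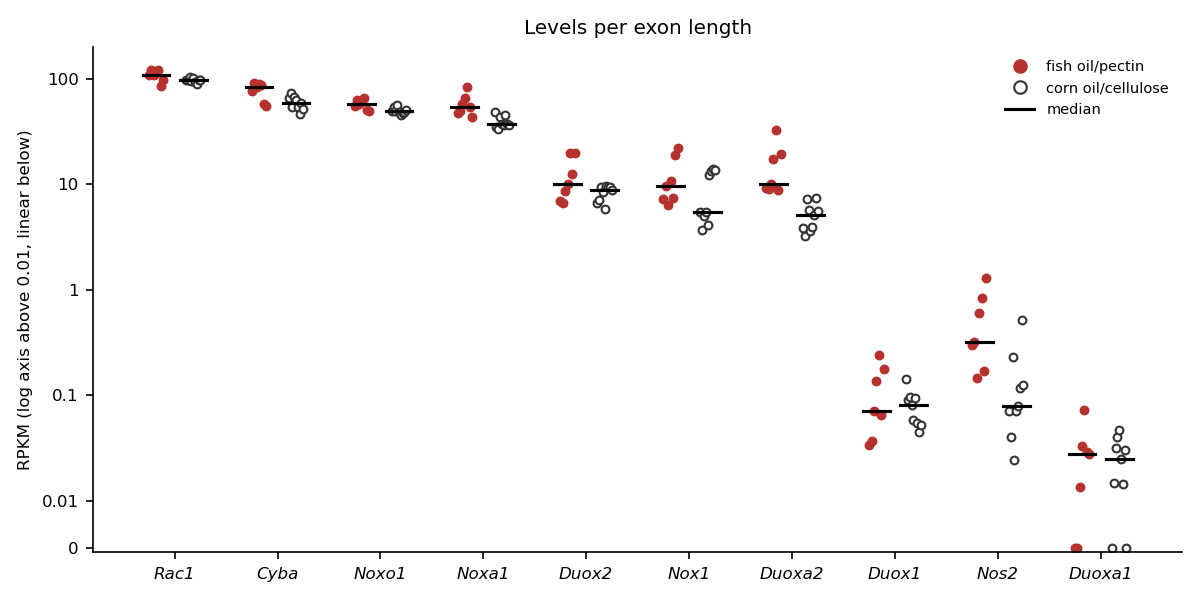
RPKM of the 10 genes in fish oil/pectin (filled) and corn oil/cellulose (open) libraries, on an axis that is logarithmic above 0.01 and linear below, with a line at each median. The lowest value of Noxa1 (43.4 RPKM with fish oil/pectin and 33.3 RPKM with corn oil/cellulose) lies above every value of Duox2, Nox1 and Duoxa2, whose highest were 32.8 RPKM with fish oil/pectin and 13.9 RPKM with corn oil/cellulose, and these lie above Nos2, Duox1 and Duoxa1.

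Whether partner genes varied together was examined after subtracting the mean of each diet and name form, so that neither difference contributed. Over 16 libraries and 5 pairs, with a two-sided permutation test within diet and name form and adjustment over the 5 pairs, Duox2 and Duoxa2 had a Pearson r of 0.90 (adjusted p = 0.00475) and a Spearman rho of 0.85 (adjusted p = 0.0123). Without the 2 libraries farthest from the median of Duox2, fish oil/pectin 4 and 7, r was 0.83. Leaving out each library in turn gave r between 0.82 and 0.94, with the highest adjusted p of 0.0246 without fish oil/pectin library 7. The rho missed the threshold in the permutation test with 3 of the libraries left out. It was 0.81 (adjusted p = 0.0578) when the library left out was fish oil/pectin 6, 0.75 (adjusted p = 0.0730) when it was fish oil/pectin 7, and 0.80 (adjusted p = 0.0648) when it was corn oil/cellulose 7. Without libraries 6 and 7 together r was 0.78 and the adjusted p 0.133. Of 11058 other genes, 12 had a higher r with Duox2, and the median r was 0.05.

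The other pairs did not pass by the same permutation test. Duox2 and Nos2 had an r of 0.54 (adjusted p = 0.135) and a rho of 0.38 (adjusted p = 0.375), and an r of 0.53 without the 2 farthest libraries. Duox1 and Duoxa1, both with few counts, had an r of 0.48 (adjusted p = 0.249) and a rho of 0.32, and an r of 0.08 without fish oil/pectin libraries 3 and 7. Nox1 had an r of 0.31 with Noxo1 (adjusted p = 0.442; rho 0.33; 0.41 without the 2 farthest) and 0.16 with Noxa1 (adjusted p = 0.650; rho 0.08; 0.06 without the 2 farthest).

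**Figure D4:**
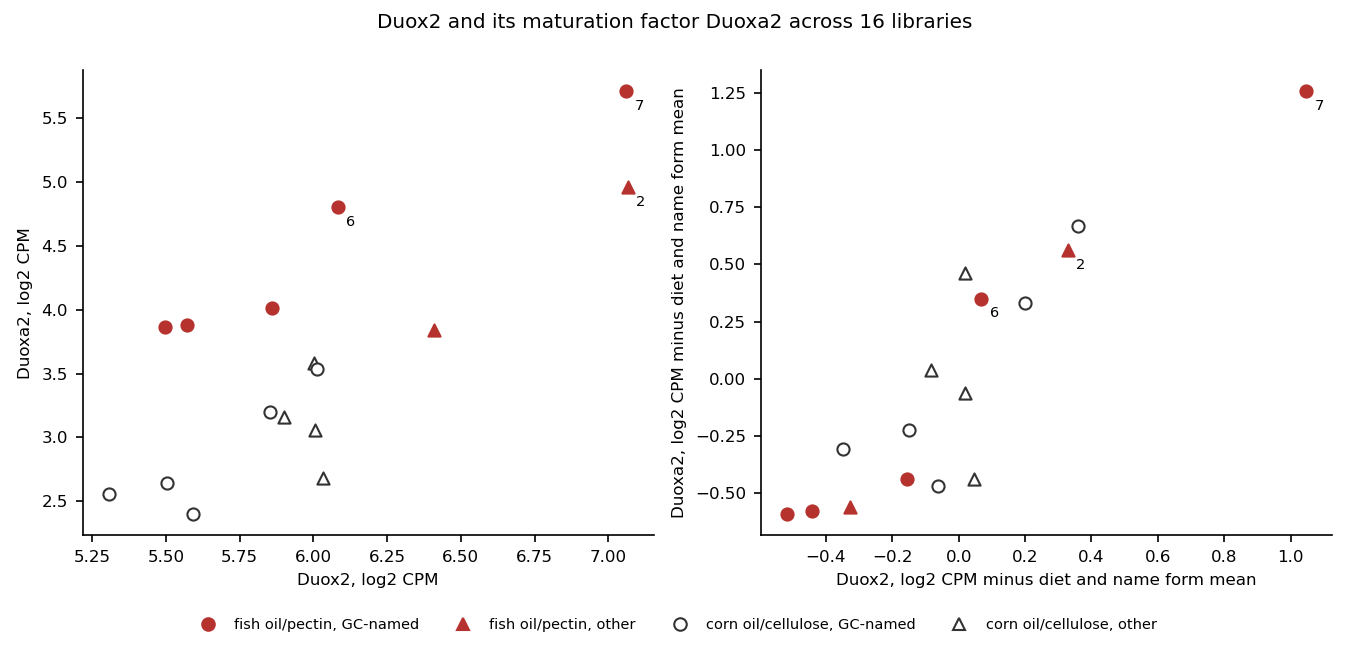
Duoxa2 against Duox2 in 16 libraries, as log2 CPM (left) and after subtracting the mean of each diet and name form (right); filled symbols are fish oil/pectin, open symbols corn oil/cellulose, and numbers mark fish oil/pectin libraries 2, 6 and 7. On the right the points follow a rising line (r = 0.90) with library 7 at its upper end.

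For Nox1, Duox2 and Nos2, the genes whose levels followed them most closely across the 16 libraries, on the same adjusted scale and among the 11058 genes, are given as a description. Nearest to Nox1 were Rbm20 (r = 0.86), an RNA-binding splicing regulator, Lrrc40 (0.80), Rbbp8nl (0.76), Tmem53 (0.74) and F8a (0.73). Nearest to Duox2 were Ddx24 (0.95), a putative RNA helicase, Mlkl (0.93), the effector of necroptosis, Nubp2 (0.93), Anxa2 (0.92), a phospholipid-binding annexin, and Tpm3 (0.92), a tropomyosin. Nearest to Nos2 were Chmp6 (0.90), an ESCRT component, Kctd5 (0.89), Elf3 (0.85), an epithelial transcription factor, Plod3 (0.85) and Rap1b (0.84). At place 100 in these orders the r was 0.54 for Nox1, 0.83 for Duox2 and 0.67 for Nos2, so high values were common around Duox2. All points share their library, so depth and library quality are part of each r.

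The genes around these enzymes were taken from 4 lists, tested by diet in the same fit of 14321 genes, of which 21.7% were higher and 20.1% lower with fish oil/pectin. The lists were chosen with earlier results of these data known, and up to 6 genes of lowest diet p are named in each. Their counts and p-values by diet are therefore a description, and nothing is read from the counts. Among other NADPH oxidases and their regulators, 6 of 23 tested genes rose with fish oil/pectin and 9 fell, with a median log2 fold change of -0.14. Those that fell include genes of the phagocyte oxidase and of leukocytes. Ncf1, the phagocyte organizer, averaged 0.523 CPM with fish oil/pectin and 1.23 CPM with corn oil/cellulose (log2 fold change -1.29 ± 0.35, adjusted p = 0.00715). Rac2, the Rac of blood cells, averaged 3.73 CPM with fish oil/pectin and 6.62 CPM with corn oil/cellulose (-0.84 ± 0.21, adjusted p = 0.00466). Arhgdib, known from blood cells, averaged 1.75 CPM with fish oil/pectin and 3.54 CPM with corn oil/cellulose (-1.11 ± 0.20, adjusted p = 7.46e-04). In other-named libraries the log2 fold change was 0.01 for Ncf1, 0.10 for Rac2 and -0.33 for Arhgdib, and the summed T and NK cell markers given above overlapped between diets there. Their part in these values was not tested beyond the marker term. Vav2, an exchange factor for Rac, fell as well (-0.50 ± 0.12, adjusted p = 0.00264). The genes that rose include the endoplasmic reticulum oxidoreductases Pdia3 (0.43 ± 0.10, adjusted p = 0.00212) and P4hb (0.34 ± 0.08, adjusted p = 0.00320), with Poldip2 (0.20 ± 0.05, adjusted p = 0.00352) and the GTPase gene Rhog (0.35 ± 0.08, adjusted p = 0.00377). Cybb, the phagocyte catalytic subunit, was too low to be tested (0.169 CPM with fish oil/pectin and 0.465 CPM with corn oil/cellulose on average), and Nox3 and Nox4 were at 0 in every library.

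For nitric oxide synthesis, 10 of 21 tested genes rose with fish oil/pectin and 1 fell, with a median log2 fold change of 0.27. Gchfr, the feedback regulator of tetrahydrobiopterin synthesis, averaged 5.08 ± 1.79 CPM with fish oil/pectin and 1.96 ± 0.50 CPM with corn oil/cellulose (1.23 ± 0.16, adjusted p = 3.40e-04). Calm2 (0.24 ± 0.05, adjusted p = 0.00228) and Asl, which remakes arginine (0.28 ± 0.06, adjusted p = 0.00274), rose too. Nos1ap, an adaptor of the neuronal synthase, was the gene that fell (-0.80 ± 0.18, adjusted p = 0.00200). The other synthase genes Nos1 and Nos3 were too low to be tested.

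Of the enzymes and channels that consume or pass on superoxide and peroxide, 12 of 21 tested genes rose and 1 fell, with a median log2 fold change of 0.31. Gpx2, the epithelial glutathione peroxidase, averaged 508 CPM with fish oil/pectin and 252 CPM with corn oil/cellulose (1.02 ± 0.20, adjusted p = 0.00122). The peroxiredoxin genes Prdx1 (0.53 ± 0.09, adjusted p = 5.09e-04), Prdx2 (0.42 ± 0.08, adjusted p = 7.96e-04) and Prdx4 (0.56 ± 0.11, adjusted p = 0.00124) rose, as did Txn1 (0.50 ± 0.10, adjusted p = 0.00113) and Gpx4, which reduces lipid peroxides (0.48 ± 0.10, adjusted p = 0.00142). Sod3, the extracellular dismutase, was the gene that fell (-0.91 ± 0.28, adjusted p = 0.0162), and is named after its value was seen. For 6 of the 21 the log2 fold change was higher in GC-named than in other-named libraries by the interaction test. Over all genes tested 4.27% were higher and 4.14% lower. Among the 6 was Gpx4, at 0.69 in GC-named and 0.06 in other-named libraries (adjusted p = 0.0241). Without fish oil/pectin library 2, 0 genes in the whole table were higher by this test, so none of the 6 calls remained. At an adjusted p of 0.01, 2 genes in the whole table were higher.

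The list of receptors and transcription factors that can induce Nox1, Duox2 or Nos2 also holds kinases, adaptors and inhibitors, so its counts mix opposite functions. All of its genes were tested, 33 of 33, and 2 rose and 8 fell, with a median log2 fold change of -0.02. Those that fell include Tlr5, the flagellin receptor, which averaged 4.25 CPM with fish oil/pectin and 7.79 CPM with corn oil/cellulose (-0.84 ± 0.16, adjusted p = 9.00e-04), the kinase genes Tyk2 (-0.31 ± 0.06, adjusted p = 6.90e-04) and Jak2 (-0.31 ± 0.08, adjusted p = 0.00448), Ifnar1 (-0.24 ± 0.05, adjusted p = 0.00174) and Nfkb1 (-0.26 ± 0.07, adjusted p = 0.00652). Nfkbia, the inhibitor of NF-kappa B, rose (0.25 ± 0.06, adjusted p = 0.00462), as did Tnfrsf1a, a receptor for tumour necrosis factor (0.19 ± 0.07, adjusted p = 0.0331). Stat3 and Rela, the factors behind the GAS and kappa B motifs, had log2 fold changes of -0.02 and -0.01 that did not pass. Tnfrsf1a, Stat3 and Rela are named after their values were seen, as were Ncf1, Rac2, Cybb, Nox3, Nox4, Nos1 and Nos3 above. Without libraries 6 and 7 the 4 lists had, in the order given, 5, 8, 10 and 1 genes higher and 8, 1, 0 and 7 lower, and with the non-epithelial marker term none of their genes passed. In the other-named libraries fitted alone, 2, 1, 1 and 1 genes passed.

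**Figure D5:**
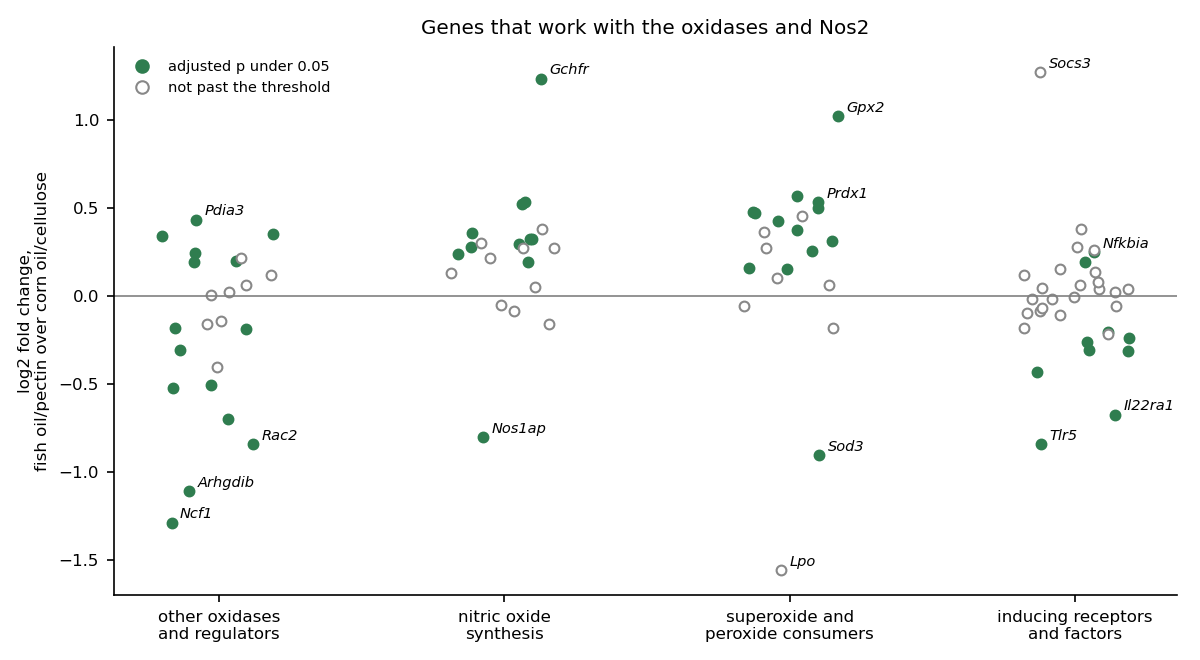
Log2 fold change between diets (vertical axis; above 0 is higher with fish oil/pectin) of each tested gene in 4 lists, with filled points past an adjusted p of 0.05. Filled points lie mainly above 0 for nitric oxide synthesis (10 of 11) and for superoxide and peroxide consumers (12 of 13), and mainly below 0 for inducing receptors and factors (8 of 10). The lists were chosen with earlier results of these data known, and the last also holds kinases, adaptors and inhibitors.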

How the data were processed

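The deposited table holds raw read counts per gene symbol, 1 column per library, made by the authors with STAR 2.6.0a, HTSeq 0.11.1 and build GRCm38, per the submitters' processing notes. No source used here gives the counting annotation or its strand setting. Each library took 200 ng of RNA into a stranded mRNA kit, per the labels' protocols, and 0 per-sample columns were left unused. Replicate libraries of a diet differed beyond sampling noise in all 57 pairs (chi-square per degree of freedom 8.20 to 141). The labels do not say that each came from a separate animal, so p-values cover only library-to-library spread, which may be technical. Total counts of 13996288 to 19512755 per library set the precision.

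Counts were fitted with edgeR 4.0.16 (R 4.3.3) over 14321 genes kept by filterByExpr, with TMM scaling, a robust quasi-likelihood test, terms for name form and diet, and Benjamini-Hochberg adjustment over all genes with a threshold of 0.05. Standard errors are the size of the log2 fold change divided by the root of its F statistic. A model with all 4 combinations of name form and diet gave the interaction and the values within each name form. CPM use TMM-scaled totals and are not adjusted for name form. RPKM use the union exon length of GENCODE M21, whose build is that of the files. Correlations used log2 CPM with a prior count of 2 and 100000 permutations. Libraries with over 100 counts over the Y-linked genes used were taken as male. The fits were tested on simulated data.

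The 10 genes, the marker lists and the 4 gene lists were chosen with earlier results of these data known. Named genes are the 10, the 5 genes with the highest residual r to Nox1, Duox2 and Nos2 among genes with a mean log2 CPM of at least 1 (without predicted genes and pseudogenes), and up to 6 genes of lowest diet p in each list; others are said to be named after their values were seen, and some genes of this rule are not reported here. Same-numbered libraries of the diets did not deviate together (r between -0.15 and 0.28 over 7 numbers), so no block was used. DESeq2 1.42.0, limma 3.58.1 (voom with quality weights), other scalings, filters, covariates and subsets of libraries were tried as alternatives.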

Additional observations from a re-analysis of the deposited data

Results flagged for a closer look

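Among 20 sets of values examined (each of the 10 genes in each diet), 1 held a library far from the others. Nos2 was at 2.27 CPM (38 counts) in corn oil/cellulose library 3, and the next highest corn oil/cellulose library was at 1.01 CPM. The gap was 0.580 of the range of the 9 libraries. Chance flags about 1 set in 20.

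Of the 28 genes named from the 4 lists, 6 had a diet difference that itself differed between GC-named and other-named libraries by edgeR's interaction test. Over all genes tested 8.41% did. The 28 were named by a low diet p or after their values were seen, and 10 of the 16 libraries were GC-named. Nothing is therefore read from the count. For Rac2 the log2 fold change between diets was -1.25 in GC-named and 0.10 in other-named libraries, a difference of -1.35 (adjusted p = 0.0268). For Nos1ap it was -1.19 in GC-named and -0.21 in other-named libraries, a difference of -0.98 (adjusted p = 0.0404). For Nfkb1 it was -0.42 in GC-named and 0.03 in other-named libraries, a difference of -0.45 (adjusted p = 0.0183). For Prdx2 it was 0.60 in GC-named and 0.08 in other-named libraries, a difference of 0.51 (adjusted p = 0.0181). For Txn1 it was 0.68 in GC-named and 0.13 in other-named libraries, a difference of 0.56 (adjusted p = 0.0405). For Gpx4 it was 0.69 in GC-named and 0.06 in other-named libraries, a difference of 0.62 (adjusted p = 0.0241). Without fish oil/pectin library 2, 6 genes in the whole table passed this test, 0 with a positive difference and 6 with a negative one. The positive differences of Prdx2, Txn1 and Gpx4 thus did not pass there. Whether Rac2, Nos1ap and Nfkb1 passed there is not reported here.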

How the results depend on the processing

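Direction and side of the threshold of Nox1 by name form were the same under all 29 settings run. Counts of genes over the whole table moved more. Between diets, 5979 genes passed; 3591 passed at an adjusted p of 0.01, 900 in other-named libraries alone, 2250 with the lower library numbers alone, 1458 in male libraries alone (a setting chosen after seeing the data), 1 with the non-epithelial marker term, and 5079 to 6066 with each library left out. With a replicate block 3454 passed (1881 higher, 1573 lower), and 6 of the 9 genes described here; the numbers do not pair the libraries, so this is not read as a weaker effect. By name form, 5799 passed, 3554 at 0.01, 3086 with the marker term, 2029 with sex as a term, and 4255 to 6076 with each library left out. For the interaction, 1204 passed, 725 with no filter on low counts, 2095 by voom, 17 at 0.01, and 6 to 1763 with each library left out. Scaling by total counts made 37.3% of the diet calls higher, against 51.9% with TMM, and shifted the median gene by -0.08 between diets. With no diet and name form means removed, the r of Duox2 with Nos2 was 0.67 (permutation adjusted p = 0.0104), and 0.28 without the 2 farthest libraries; without libraries 6 and 7 the r of Duox2 with Duoxa2 was 0.78, a setting chosen after seeing the data, as were the Hoxd13 term and leaving out single libraries in the correlations. The cause of these moves was not tested. Counts of 0 to 5 for Duoxa1, 3 to 22 for Duox1 and 2 to 104 for Nos2 limit what can be said of those genes, and 2 other-named fish oil/pectin libraries limit the interaction.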
